A study of Rattus with 6 samples.

Results

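Mitochondria carry a small genome of their own, and 6 of its protein-coding genes are described here in cardiomyocytes, the contracting muscle cells of the heart, isolated from rat ventricles. Mt-cyb encodes cytochrome b of complex III, which passes electrons from ubiquinol to cytochrome c. Mt-co1, Mt-co2 and Mt-co3 encode the core subunits of complex IV, cytochrome c oxidase, where the electrons reach oxygen. Mt-atp6 and Mt-atp8 encode the membrane subunits of complex V, the ATP synthase, that are made inside the mitochondrion. The genes were chosen by the function of their products, with earlier results of these data known. Their Ensembl identifiers are ENSRNOG00000031766 (Mt-cyb), ENSRNOG00000034234 (Mt-co1), ENSRNOG00000030371 (Mt-co2), ENSRNOG00000030700 (Mt-co3), ENSRNOG00000031979 (Mt-atp6) and ENSRNOG00000033299 (Mt-atp8). The files list identifiers alone, and the symbols came with the identifiers when the genes were chosen. All 6 of them were listed in each library, among 23092 genes in all, and all 6 passed the filter on low counts.

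Heart muscle lives on oxidative phosphorylation, and its cells are packed with mitochondria. Mitochondrial DNA is transcribed as long precursors, which are cut into separate RNAs, mostly at the transfer RNAs that lie between the genes. Mt-atp8 and Mt-atp6 are an exception: their reading frames overlap and are carried by a shared messenger RNA, which also has Mt-co3 downstream of it in the precursor. The mature messengers carry short poly(A) tails, so poly(A) selection retains them.

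The samples were 3 control libraries and 3 hypergravity libraries from wild-type male Wistar rats aged 8 weeks. The hypergravity rats were exposed to 4 g by centrifugation for 14 days, 8 h per day, and the control rats were not exposed to hypergravity. The comparison asks how this exposure changed transcript levels. The labels do not say whether the libraries of a group came from separate rats, so p-values measure only the spread between these libraries. Totals on genes ran from 24440690 to 45497422 counts, and the 95% Wilson interval of every share of gene counts was within 0.0178 percentage points of its value, for counting error only. The cell type named in the labels was not checked against its markers, since the files pair no identifier with a gene name. In such bulk RNA, fewer cells and less RNA per cell cannot be told apart.

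The libraries did not sort by group in the summed share of these 6 mitochondrial genes. Together, the 6 genes took 58.3%, 55.7% and 48.4% of the gene counts in control libraries 1, 2 and 3. They took 44.3%, 37.8% and 55.4% in hypergravity libraries 1, 2 and 3. Hypergravity library 3 therefore lay beside control library 2, above control library 3, while hypergravity libraries 1 and 2 were the lowest of all. The hypergravity group had a mean of 45.8 ± 8.89% and the control group of 54.1 ± 5.16% (SD, n = 3 each). The groups overlapped, and the difference of -8.30 percentage points was smaller than the spread among the hypergravity libraries. Most of it lay in complex IV, which also held most of the sum in each group. Its 3 genes took 34.3 ± 6.51% with hypergravity and 41.3 ± 3.61% without (SD, n = 3 each). Of these, Mt-co1 and Mt-co3 had lower means with hypergravity, and Mt-co2 a nearly equal one. The complex III gene took 5.92 ± 1.14% and 6.62 ± 0.587% (SD, n = 3 each), and the complex V pair 5.64 ± 1.34% and 6.18 ± 0.963% (SD, n = 3 each).

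Mt-cyb, the only mitochondrially encoded subunit of complex III, made up 7.07%, 6.83% and 5.95% of the gene counts in control libraries 1, 2 and 3. It made up 5.60%, 4.98% and 7.2% in hypergravity libraries 1, 2 and 3. The highest value of all belonged to hypergravity library 3 and the lowest to hypergravity library 2, so the groups overlapped (two-sided exact permutation test, p = 0.5). With 3 libraries in each group, such a test cannot give a p-value below 0.1.

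Mt-co1, the subunit that holds the oxygen-reducing centre of cytochrome c oxidase, had more reads on average than any other gene. Its share was 29.6%, 27.8% and 25.7% in control libraries 1, 2 and 3. It was 22.6%, 18.8% and 26.6% in hypergravity libraries 1, 2 and 3. Hypergravity library 3 again lay within the control range, and the means of 22.7 ± 3.92% and 27.7 ± 1.97% (SD, n = 3 each) came from overlapping groups (two-sided exact permutation test, p = 0.2).

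Mt-co2, which carries the copper site that receives electrons from cytochrome c, took 5.37%, 5.49% and 4.49% in the control libraries. It took 5.03%, 4.28% and 6.14% in the hypergravity libraries. The means were nearly equal, 5.15 ± 0.934% after hypergravity and 5.12 ± 0.547% in the control group (SD, n = 3 each; two-sided exact permutation test, p = 1). Mt-co3, the third core subunit, which has no redox centre, took 9.30%, 9.12% and 7.14% in the control libraries. It took 6.21%, 4.89% and 8.21% in the hypergravity libraries. Hypergravity library 3 exceeded control library 3, and the groups overlapped (two-sided exact permutation test, p = 0.2).

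Mt-atp6, the subunit that forms the proton path in the membrane part of ATP synthase, took 6.66%, 6.15% and 4.91% in the control libraries. It took 4.45%, 4.36% and 6.52% in the hypergravity libraries. As for the genes of complexes III and IV, hypergravity library 3 was well above the other 2 of its group, and the groups overlapped (two-sided exact permutation test, p = 0.3).

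Mt-atp8, the small accessory membrane subunit encoded just upstream of Mt-atp6, was the gene of the 6 whose share did not overlap between the groups. It received 87003, 73026 and 71221 reads in control libraries 1, 2 and 3, and 185627, 209594 and 164566 in hypergravity libraries 1, 2 and 3. Its share was 0.346%, 0.248% and 0.211% in the control libraries and 0.472%, 0.461% and 0.673% in the hypergravity libraries. Hypergravity library 3 was the highest and control library 3 the lowest. The means were 0.535 ± 0.120% and 0.268 ± 0.0696% (SD, n = 3 each), a ratio of 1.00 on the log2 scale, with the smallest p that this design allows (two-sided exact permutation test, p = 0.1). Of all 11905 genes tested, 10.4% had a share that was higher in every hypergravity library than in every control library, and 1.92% one that was lower. Mt-atp8 alone of the 6 genes was in the first set, and none of them was in the second. The separation of Mt-atp8 was lost per 100 counts of the genes outside the 6, where the log2 ratio of the means was 0.78 (two-sided exact permutation test, p = 0.2).

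**Figure D1:**
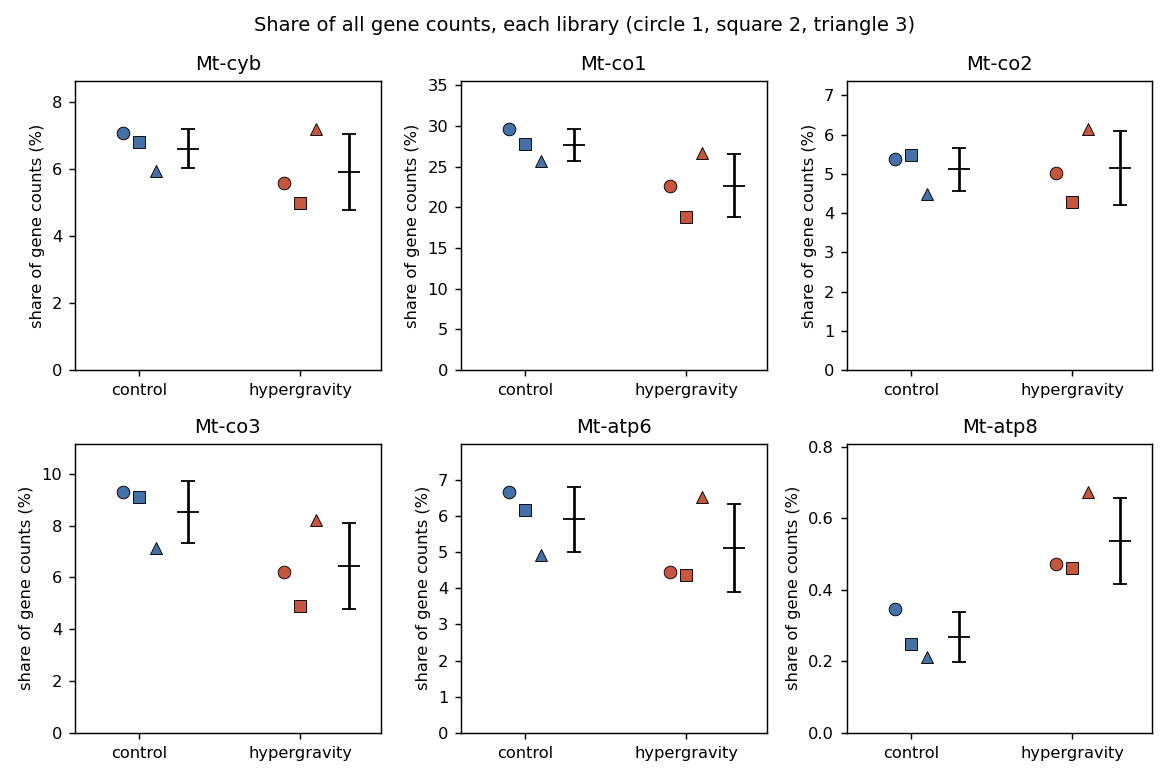
Share of all gene counts (percent, axes from 0) of each gene in the 3 control and 3 hypergravity libraries, with the group mean and SD beside the points (circle, square and triangle for libraries 1, 2 and 3). Mt-atp8 is the gene whose groups do not overlap, from 0.211 to 0.346% in the control group and from 0.461 to 0.673% after hypergravity, and hypergravity library 3 is the highest of its group in all 6 panels.

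Ratios between mitochondrial genes of the same library do not depend on how much of the library is mitochondrial. Per 100 reads of Mt-atp6, there were 5.19, 4.02 and 4.30 reads of Mt-atp8 in control libraries 1, 2 and 3. There were 10.6, 10.6 and 10.3 in hypergravity libraries 1, 2 and 3. The hypergravity libraries were thus close together, including library 3, and all lay above the control libraries. On the log2 scale the ratio was -3.25 ± 0.02 in the hypergravity group and -4.48 ± 0.19 in the control group (SD, n = 3 each). The difference of 1.23, or 2.34-fold, gave p = 0.1 in a two-sided exact permutation test (0.15 after Benjamini-Hochberg adjustment over the 6 ratios computed). Among all genes tested, 5.48% were higher relative to Mt-atp6 in every hypergravity library than in every control library, and 0.588% were lower. Most of these genes are nuclear, so their ratios to Mt-atp6 or Mt-co1 also carry the mitochondrial share of the library. That share was not measured as a whole. The summed share of the 6 genes had a lower mean in the hypergravity group, with overlapping groups. The median difference over the 11862 genes with a count in each library was 0.51 on the log2 scale, and 6.08% of these genes differed by at least as much as Mt-atp8. Among the 42 such genes with a mean of at least 1000 CPM (counts on a per-library scale corrected with TMM, the trimmed mean of M values), 2 differed by at least as much, Mt-atp8 included.

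Relative to Mt-co1, Mt-atp8 had 1.17, 0.890 and 0.824 reads per 100 in control libraries 1, 2 and 3. It had 2.09, 2.45 and 2.53 in hypergravity libraries 1, 2 and 3. The groups did not overlap, and the log2 difference was 1.31 (2.47-fold; two-sided exact permutation test, p = 0.1, adjusted 0.15). Relative to Mt-co1, 11.4% of all other genes tested were higher without overlap and 0.563% lower.

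A smaller shift of the same kind was seen within complex IV. Mt-co2 had 18.2, 19.7 and 17.5 reads per 100 of Mt-co1 in the control libraries and 22.3, 22.8 and 23.0 in the hypergravity libraries. Again every hypergravity library lay above the control range, as it did for 11.4% of all genes tested other than Mt-co1. The share of Mt-co2 itself overlapped between the groups. The log2 difference was 0.30, or 1.23-fold (two-sided exact permutation test, p = 0.1, adjusted 0.15). Mt-cyb had 23.9, 24.5 and 23.2 reads per 100 of Mt-co1 in the control libraries and 24.8, 26.5 and 27.0 in the hypergravity libraries, a log2 difference of 0.13 without overlap (two-sided exact permutation test, p = 0.1, adjusted 0.15). Here the nearest libraries of the groups, 24.5 and 24.8, were almost equal. Measured against the geometric mean of the other 5 genes, in which Mt-atp8 counts as much as any other, the difference of Mt-cyb turned to -0.18, lower without overlap, and that of Mt-co2 fell to 0.02.

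The remaining ratios overlapped between the groups when all libraries were used. Mt-co3 had from 27.8 to 32.8 reads per 100 of Mt-co1 in the control libraries and from 26.0 to 30.8 after hypergravity (two-sided exact permutation test, p = 0.2, adjusted 0.24). Mt-atp6 had from 19.1 to 22.5 and from 19.7 to 24.5, respectively (two-sided exact permutation test, p = 0.5, adjusted 0.5). Both overlaps changed with single libraries. The log2 difference of Mt-co3, -0.13, was -0.19 without overlap when either hypergravity library 3 or control library 3 was left out, and that of Mt-atp6, 0.08, was 0.17 without overlap when hypergravity library 1 was left out and 0.0032 without control library 3. Among all other genes tested, the same ratio was lower without overlap for 0.731% without hypergravity library 3 and for 0.647% without control library 3, and higher without overlap for 14.9% without hypergravity library 1. Against the geometric mean of the other 5 genes, Mt-co3 had -0.49 and Mt-atp6 -0.24, both lower without overlap, and Mt-atp8, which is part of the reference of the other 5, had 1.23, higher without overlap (two-sided exact permutation test, p = 0.1 for each). Of all genes tested, with genes outside the set measured against the geometric mean of all 6, 3.71% were higher without overlap and 1.06% lower.

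**Figure D2:**
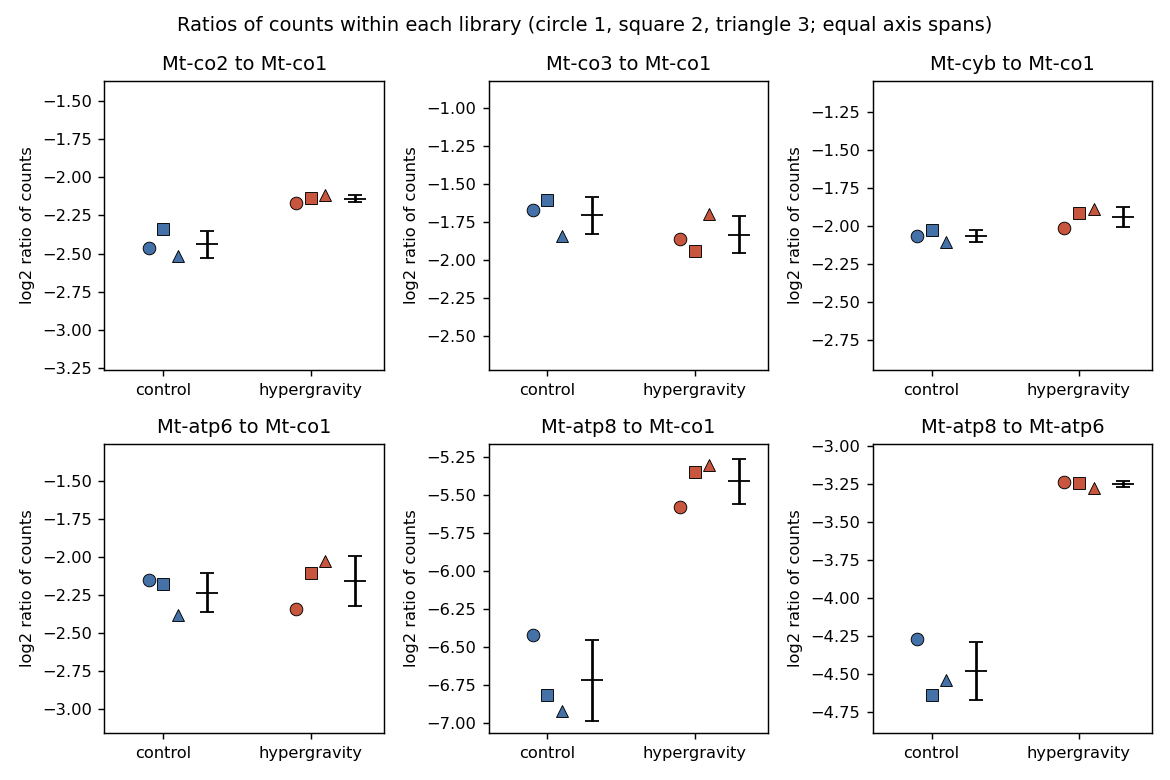
Log2 ratio of counts between genes of the same library, in 3 control and 3 hypergravity libraries, with the group mean and SD; each panel spans the same length of the log2 axis. The group means differ most in the Mt-atp8 panels, by 1.31 relative to Mt-co1 and 1.23 relative to Mt-atp6, and by 0.30 for Mt-co2 and 0.13 for Mt-cyb relative to Mt-co1.

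Within each group, the genes varied less between libraries as parts of the summed counts of the 6 genes than as parts of the library. The coefficient of variation of the share of gene counts ran from 17.3 to 25.9% over the 6 genes among the hypergravity libraries, while that of the part of the 6-gene sum ran from 1.31 to 8.49%. Among the control libraries, the same values were 7.10 to 26.0% and 0.824 to 17.9%, with Mt-atp8 the highest on both measures. Mt-co1 made up 49.6 ± 1.42% of the sum after hypergravity and 51.3 ± 1.60% in the control group (SD, n = 3 each). Between the groups, 3 of the 6 parts did not overlap, while the summed share did. Mt-atp8 made up 1.17 ± 0.0883% of the sum after hypergravity and 0.492 ± 0.0879% in the control group, Mt-co2 11.3 ± 0.147% and 9.45 ± 0.356%, and Mt-cyb 12.9 ± 0.288% and 12.2 ± 0.101% (SD, n = 3 each). Each of these 3 parts was higher after hypergravity (two-sided exact permutation test, p = 0.1 for each), and those of Mt-co1, Mt-co3 and Mt-atp6 overlapped. Of all genes tested, 8.41% were higher without overlap relative to the sum of the 6 genes, and 0.588% lower. The parts add up to the whole sum, so they are not independent of each other.

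In the test across all genes, none of the 6 genes was called. The quasi-likelihood test of edgeR on TMM-scaled counts, with Benjamini-Hochberg adjustment over 11905 genes, called 0 of the 6 genes in either direction at an adjusted p-value under 0.05, where 0.0336% of all genes were called, every one of them lower after hypergravity. At an unadjusted p-value under 0.05 it also gave 0 of the 6, where 13.6% of all genes passed. That count changed in some fits: without hypergravity library 3, Mt-co3 and Mt-atp6 were lower at that threshold, as were 8.65% of all genes, and with no scaling beyond library size Mt-atp8 was higher, as were 7.08% of all genes. DESeq2 called 0 of the 6 after adjustment, where it called 1.63% higher and 1.41% lower of the 10741 genes that it gave an adjusted p-value. Before adjustment, Mt-atp8 alone of the 6 passed the same threshold with DESeq2, as a higher gene, as in that direction did 6.94% of the 11895 genes with a p-value.

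Mt-atp8 had a log2 fold change of 0.74 (standard error 0.44, 95% interval from -0.27 to 1.75, edgeR adjusted p = 0.484), which only 4.57% of the genes tested exceeded. The other 5 genes had negative estimates with intervals that include 0. The lowest was that of Mt-co3, -0.64 (standard error 0.46, 95% interval from -1.70 to 0.42, edgeR adjusted p = 0.568). Mt-co1 followed with -0.53 (standard error 0.42), Mt-atp6 with -0.46 (0.45), Mt-cyb with -0.40 (0.42) and Mt-co2 with -0.24 (0.42), with edgeR adjusted p-values from 0.604 to 0.829. The intervals of all 6 genes include the median over all genes tested, -0.02. On this TMM scale the levels of Mt-atp8 overlapped: 4277, 3199 and 1830 CPM in control libraries 1, 2 and 3, and 4181, 3028 and 8364 CPM in hypergravity libraries 1, 2 and 3. The other 5 genes overlapped as well, where 21.8% of all genes tested had no overlap on this scale. For each of the 6 genes, control library 3 was the lowest of its group and hypergravity library 3 the highest of its group.

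**Figure D3:**
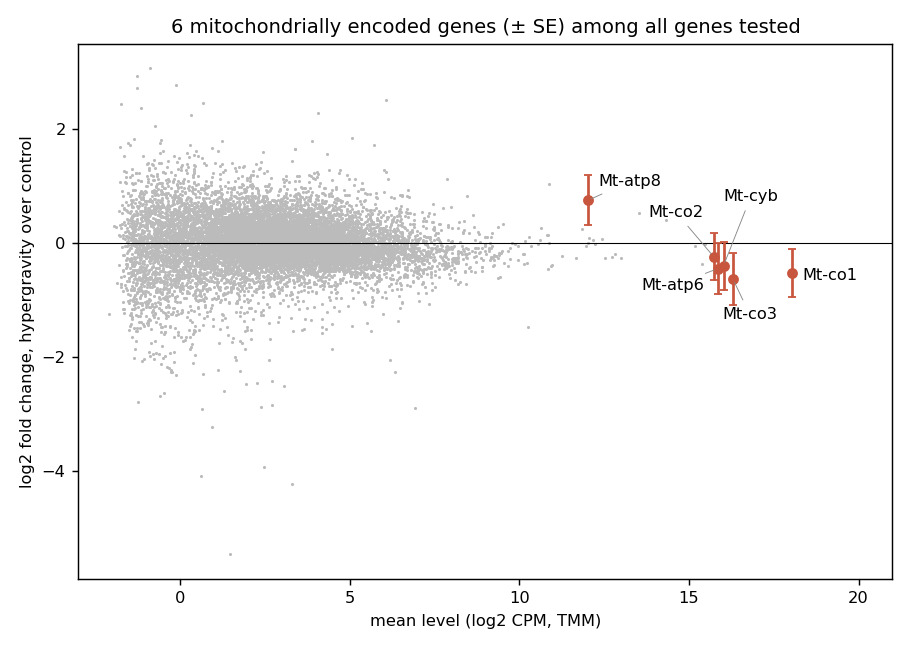
Log2 fold change (hypergravity over control, edgeR) against mean level (log2 CPM) for all 11905 genes tested (grey) and the 6 mitochondrially encoded genes (red, bars are ± SE). Mt-atp8 lies at 0.74 and the other 5 between -0.24 and -0.64.

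These estimates moved with single libraries. Without hypergravity library 3, the log2 fold change of Mt-atp8 dropped to 0.22 and those of the other 5 genes ran from -1.17 (Mt-co3) to -0.69 (Mt-co2), with edgeR adjusted p-values from 0.271 to 0.788 over the 6 genes. Without control library 3 the estimate of Mt-atp8 was 0.47, and leaving out hypergravity library 3 or control library 3 made the other 5 more negative. Leaving out hypergravity library 2 moved all 6 upwards, to 1.03 for Mt-atp8, -0.11 for Mt-cyb, -0.23 for Mt-co1, -0.30 for Mt-co3, -0.16 for Mt-atp6 and 0.06 for Mt-co2, the last no longer negative. The log2 difference of Mt-atp8 relative to Mt-atp6 was less affected, from 1.15 to 1.34 with each of the 6 libraries left out. Groups that do not overlap stay apart whichever library is left out, so their separation in those fits adds nothing.

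**Figure D4:**
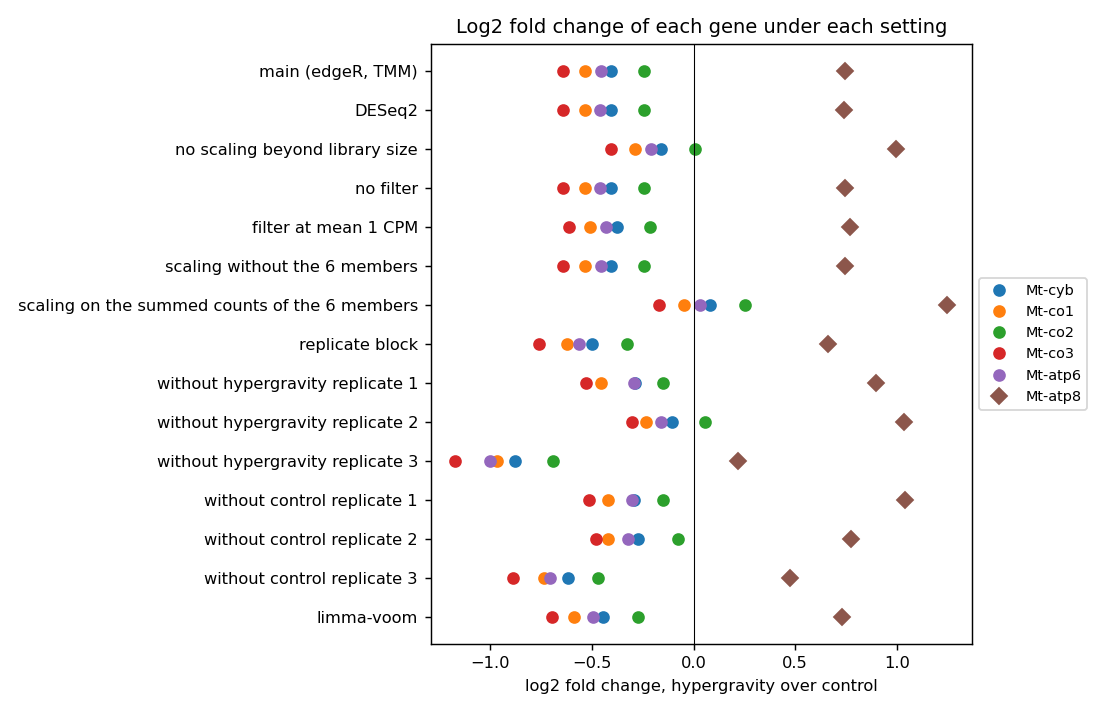
Log2 fold change (hypergravity over control) of each of the 6 genes in the main fit and in each of 14 alternatives. The estimate of Mt-atp8 (diamonds) lies to the right of the other 5 genes in every row, from 0.22 to 1.25.

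A fit that scales each library on the summed counts of the 6 genes, chosen after the data were seen, compares every gene with this set. There the log2 fold change of Mt-atp8 was 1.25 (standard error 0.35, edgeR adjusted p = 0.205, unadjusted p = 0.000349), where 0.0336% of all genes were called higher and 0.0336% lower after adjustment. In that fit, 6.73% of the genes were higher with an unadjusted p-value under 0.05, and 0.336% lower. The other 5 genes lay between -0.17 (Mt-co3) and 0.25 (Mt-co2), with edgeR adjusted p-values from 0.601 to 0.914. Mt-atp8 is the gene of the 6 whose estimate exceeded its standard error most, and it too did not pass after adjustment.

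HTSeq lists reads that it cannot assign to a single gene as ambiguous, and since Mt-atp8 and Mt-atp6 overlap, reads over their junction can fall in that category and in neither count. This category made up 4.01%, 3.67% and 3.52% of the listed alignments in control libraries 1, 2 and 3 and 2.83%, 2.93% and 3.56% in hypergravity libraries 1, 2 and 3. It was lower in 2 of the 3 hypergravity libraries than in any control library, while hypergravity library 3 lay within the control range (two-sided exact permutation test, p = 0.2). Per 100 ambiguous alignments, Mt-atp8 had 7.89, 6.16 and 5.47 counts in the control libraries and 15.1, 14.2 and 17.1 in the hypergravity libraries. How many ambiguous alignments came from the Mt-atp8 and Mt-atp6 junction was not analysed here, and their part in the difference of Mt-atp8 was not tested. Nuclear copies of mitochondrial DNA can also draw reads away as alignments to several places, which made up 1.93 ± 0.285% in the control group and 2.31 ± 0.337% after hypergravity (SD, n = 3 each), with overlapping groups (two-sided exact permutation test, p = 0.2). Their part was not tested either.

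The genes whose levels most resembled the mean profile of the 6 genes over the 6 libraries were sought among all other genes tested. The nearest was ENSRNOG00000031033 (mean 42647 CPM), with a Pearson correlation of 0.993 of its log2 CPM with that profile, followed by ENSRNOG00000024140 (mean 6.31 CPM) with 0.991. The 5 nearest genes had correlations of at least 0.986. Of the 6 genes themselves, Mt-atp8 correlated with the profile at only 0.632, and the other 5 at 0.961 to 0.995. These correlations over 6 libraries, in which the genes share their scaling factors, are descriptions alone.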

How the data were processed

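Poly(A)-selected RNA of isolated ventricular cardiomyocytes was sequenced from TruSeq Stranded mRNA libraries, per the labels. The authors' processing notes name FastQC, Trimmomatic, HISAT2, HTSeq and the build mRatBN7.2; versions, counting options and the use of strand are not given in the sources used here. The deposited values are whole-number read counts per Ensembl gene, 1 library per file, without normalization. The 5 HTSeq summary categories were kept out of library sizes and tests and took from 8.55 to 9.92% of the listed alignments.

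The groups were compared in edgeR 4.0.16 under R 4.3.3, using the filterByExpr filter, TMM factors, quasi-likelihood F tests and p-values adjusted by Benjamini-Hochberg. A standard error is the size of the log2 fold change over the square root of F. Shares and ratios were compared with exact permutation tests (scipy 1.17.1). Alternatives were DESeq2 (1.42.0), other scalings and filters, a replicate block, each library left out, and, added later, limma-voom (limma 3.58.1) and scaling on the 6 genes. The edgeR script was tested on simulated counts.

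The genes and lists were chosen with earlier results of these data known. The genes to be named were the 6 members, genes of 15 pathway and marker lists, and the 5 genes of most similar profile. None of the 23092 identifiers matched the rat gene table at hand (GRCr8; 0 matches), so the lists, gene lengths, positions and sequences were not analysed here. Counts are not per length, so levels are not compared between genes. Each pair of libraries differed beyond sampling noise.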

Additional observations from a re-analysis of the deposited data

Results flagged for a closer look

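Outside the gene counts, the alignments that fell in no annotated exon took 4.20 ± 0.179% of all listed alignments in the hypergravity group and 3.08 ± 0.201% in the control group (SD, n = 3 each). Each of the 3 hypergravity libraries was above each control library, which gives 0.1 in an exact permutation test (two-sided), the lowest p possible here. Like the share of Mt-atp8, this measure separated the groups, and its part in the difference of Mt-atp8 was not tested.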

How the results depend on the processing

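None of the 6 genes was called in any of 14 alternatives, by edgeR, DESeq2 or limma-voom. Before adjustment, Mt-atp8 passed as higher with DESeq2, with no scaling and with scaling on the 6 genes, and Mt-co3 and Mt-atp6 as lower without hypergravity replicate 3. Mt-atp8 kept a positive estimate in all 14 (edgeR, DESeq2 and limma-voom adjusted p from 0.205 to 0.789), and Mt-co1 and Mt-co3 a negative one. The sign turned for Mt-co2 with no scaling beyond library size (0.0090), without hypergravity replicate 2 (0.059, the highest with a library left out, the lowest being -0.69) and with scaling on the 6 genes (0.25), and in the last also for Mt-cyb (0.081) and Mt-atp6 (0.032), since that scaling centres the set near 0 by construction. The near-equal group shares of Mt-co2 turned to log2 ratios of -0.20 per 100 counts of the other genes, -0.00487 over all listed alignments and -0.24 on TMM-scaled CPM, and ran from -0.14 to 0.13 with each library left out, negative without hypergravity replicate 3 and without control replicate 3. The summed share of the 6 genes, a log2 ratio of -0.24, moved to -0.49 on TMM-scaled CPM and ran from -0.40 to -0.12 with each library left out. Against the geometric mean of the other 5 genes, which holds Mt-atp8, the ratio difference turned to -0.18 for Mt-cyb and -0.24 for Mt-atp6 and moved from -0.13 to -0.49 for Mt-co3, all 3 then lower without overlap (1.06% of all genes tested were), while Mt-atp8, part of that reference for the other genes, had 1.23, higher without overlap (3.71%). With each library left out, the ratio to Mt-co1 ran from -0.19 to -0.072 for Mt-co3 and from 0.0032 to 0.17 for Mt-atp6. The share of Mt-atp8, a log2 ratio of 1.00, was 0.78 per 100 counts of the other genes and 0.74 on TMM-scaled CPM, with overlapping groups in both.

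Over all genes, edgeR called 0 higher and 4 lower (876 and 740 at an unadjusted p under 0.05), DESeq2 175 and 151, edgeR without a filter 4 and 11, with no scaling 0 and 1, scaled on the 6 genes 4 and 4, and with each library left out 0 and 0 to 1. The median over all genes tested was -0.02 on the log2 scale, 0.32 with no scaling and 0.61 with scaling on the 6 genes; the causes were not tested. With a replicate block, 0 genes were called (582 higher and 397 lower at an unadjusted p under 0.05) and Mt-atp8 had 0.66 (edgeR adjusted p = 0.789). Same-numbered libraries correlated at -0.468, -0.107 and 0.209 in their deviations across genes. The signs of these correlations differed, so they do not settle whether the numbers pair the libraries. The gene lists gave no value in any setting, since no identifier was matched. With 3 libraries per group, the exact tests could not pass 0.05.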
